A study of Mus musculus with 12 samples.

Results

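The NR3 family of nuclear receptors contains the receptors for estrogens, glucocorticoids, mineralocorticoids and progesterone and the estrogen-related receptors. Its 8 genes described here, Esr1, Esr2, Esrra, Esrrb, Esrrg, Nr3c1, Nr3c2 and Pgr, were taken by symbol from a table of 23284 genes, all 8 were present, and 7 passed the filter on low counts. In the reference annotation GENCODE M21 they lie on chromosomes 10 (Esr1), 12 (Esr2 and Esrrb), 19 (Esrra), 1 (Esrrg), 18 (Nr3c1), 8 (Nr3c2) and 9 (Pgr). Polyadenylated RNA was sequenced from mandibular condylar fibrocartilage with all its cells, the layer over the head of the lower jaw in its joint. All animals were female C57BL/6 mice whose ovaries were removed at 16 weeks of age and which were 17 weeks old at sampling. For the 1 week between, a pellet delivered either 17β-estradiol (E2; the pellet held 0.01 mg and was made to release for 60 days) or placebo. The 12 libraries were ERalphaKO E2 (n = 3) and ERalphaKO placebo (n = 4), from estrogen receptor alpha knockout mice, and WT E2 (n = 3) and WT placebo (n = 2), from wild-type mice. The sources used here do not give the knockout allele or state that the replicates of a group came from separate animals, so p-values measure the spread between these libraries, which may be technical.

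These receptors are transcription factors that are switched by a lipid-soluble ligand or, in the estrogen-related group, act without a known steroid ligand. Ligand-bound estrogen receptors bind estrogen response elements as dimers and recruit coactivators, and a classic gene that they induce is the progesterone receptor gene. The glucocorticoid and mineralocorticoid receptors share ligands, and the enzyme pair Hsd11b1 and Hsd11b2 sets how much glucocorticoid reaches them. The estrogen-related receptors work with the coactivators Ppargc1a and Ppargc1b on genes of mitochondrial energy metabolism and are abundant in heart and skeletal muscle. In skeletal tissues estrogen receptor alpha and the glucocorticoid receptor are known for their roles in bone turnover and cartilage growth.

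The libraries held 9.70 to 28.8 M (mega) counts, with scaling factors of 0.950 to 1.06. All 12 fibrocartilage markers were detected in every library, with Col2a1 at 1156 to 14781, Acan at 620 to 1962 and Col1a1 at 27004 to 43587 CPM (counts per M of scaled library counts). The libraries differed in markers of tissue that adjoins the condyle or can be carried with it. The 15 skeletal muscle markers summed to 10.6 to 62.4 CPM in ERalphaKO E2, 14.2 to 7060 CPM in ERalphaKO placebo, 270 to 1331 CPM in WT E2, and 9.09 and 2928 CPM in WT placebo libraries. The 8 granulocyte markers summed to 16.3 to 15416 CPM in the 7 ERalphaKO libraries and 3.44 to 1029 CPM in the 5 WT libraries. ERalphaKO placebo replicate 3 was highest in both lists. In bulk RNA, fewer cells of a type and less RNA per cell cannot be told apart.

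Per length of exon the receptor genes spanned more than 3 orders of magnitude. The glucocorticoid receptor gene Nr3c1 led with a mean of 33.9 ± 4.30 CPM per kb over the 12 libraries (SD), and Esrra, the gene for estrogen-related receptor alpha, followed with 11.5 ± 2.18 CPM per kb. Esr1, the gene for estrogen receptor alpha, had 1.05 ± 0.581 CPM per kb, and Nr3c2, the mineralocorticoid receptor gene, 0.720 ± 0.151 CPM per kb. Esrrg, the gene for estrogen-related receptor gamma, had 0.272 ± 0.448 CPM per kb. The lowest means were those of Esrrb (estrogen-related receptor beta) at 0.0555 ± 0.0539, Pgr (progesterone receptor) at 0.0487 ± 0.0721 and Esr2 (estrogen receptor beta) at 0.0135 ± 0.0189 CPM per kb. Nr3c1 stood above Esrra and Esrra above Esr1 in 12 of 12 libraries, and the ranges of these neighbours did not overlap. All later neighbours in the order had overlapping ranges, and Esr1 exceeded Nr3c2 in 7 of 12 libraries. Nr3c1 made up 57.5% to 75.5% of the summed level per kb of the 8 genes in each library, and Esrra 19.5% to 36.1%.

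**Figure D1:**
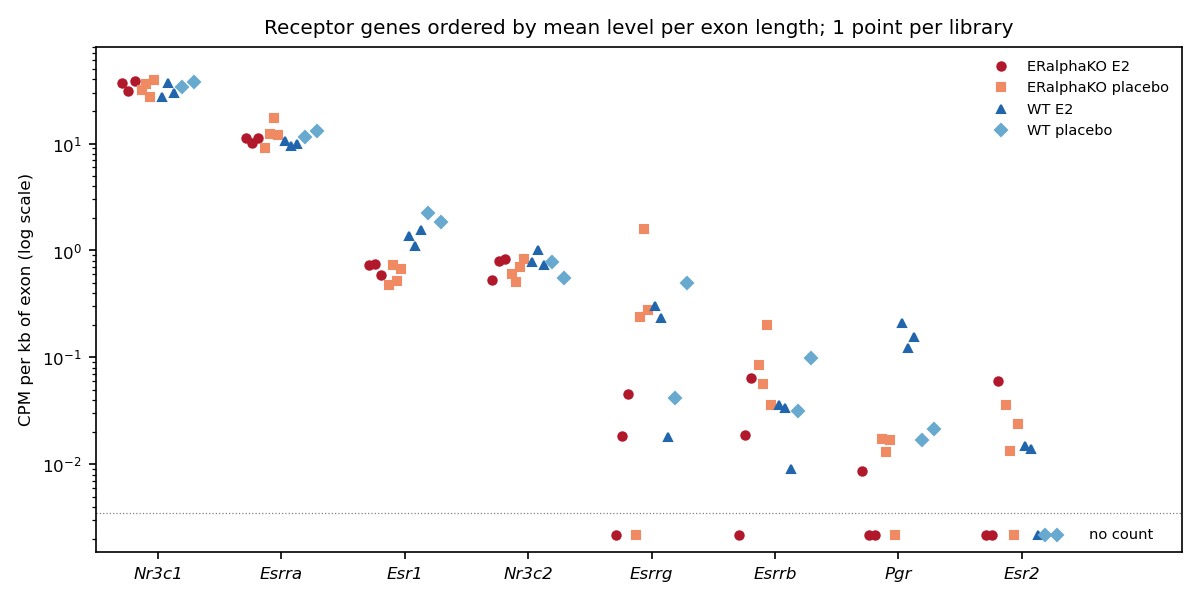
Level of the 8 receptor genes in CPM per kb of exon (vertical log axis), 1 point per library, with the 4 groups as colours and libraries without a count below the dotted line. Nr3c1 and Esrra lie above the other genes in all 12 libraries, and the WT E2 points of Pgr lie above its other points.

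Esr1 stood lower in every knockout library than in every wild-type library, and it is the gene that checks the genotype labels. It stood at 5.66, 5.78 and 4.55 CPM in ERalphaKO E2 libraries. In ERalphaKO placebo libraries it stood at 3.65, 5.68, 4.03 and 5.15 CPM. The WT E2 libraries had 10.6, 8.52 and 12.04 CPM, and the WT placebo libraries 17.5 and 14.2 CPM. Each of the 7 ERalphaKO libraries had less Esr1 than each of the 5 WT libraries, a separation that 1.36% of the 14832 tested genes showed. The mean in ERalphaKO was 29.1% of that in WT under placebo and 51.3% under E2, so Esr1 reads remained in every knockout library. The label names the gene but not the exons removed, and a count over the whole gene does not show which part of the transcript these reads cover.

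In placebo-treated mice the loss came to 3.42-fold, with ERalphaKO over WT at -1.77 ± 0.20 on the log2 scale (SE, edgeR quasi-likelihood test, adjusted p = 0.0252). It was the 1 called receptor gene of 7 in this comparison, in which 0.0135% of all tested genes were called. Called here means a Benjamini-Hochberg adjusted p under 0.05 over all 14832 tested genes. Averaged over both treatments ERalphaKO stood 2.59-fold below WT (-1.37 ± 0.14 on the log2 scale, adjusted p = 0.00232), where 0.978% of all genes were called. Under E2 its log2 fold change was -0.97 ± 0.20 (adjusted p = 0.0549 in edgeR and 0.0019 in DESeq2). The authors' deposited table gave -0.93 ± 0.23 for ERalphaKO E2 over WT E2 (adjusted p = 0.00299) and -1.67 ± 0.24 for ERalphaKO placebo over WT placebo (adjusted p = 1.98e-09), with 3.75% and 1.82% of its genes past the same threshold. The call under placebo was lost without any one of ERalphaKO placebo replicates 1, 3 or 4, WT E2 replicate 1, or WT placebo replicate 1 or 2 (log2 fold changes -1.92 to -1.62, adjusted p 0.0659 to 0.69), while the averaged call held without any one library. The call under placebo was also lost in a fit of these 2 groups alone (-1.77, adjusted p = 0.0847), with skeletal muscle markers as a covariate (-1.78, adjusted p = 0.0841) and without the 2 libraries highest in muscle markers (-1.85, adjusted p = 0.267).

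Of 13 marker lists, 2 did not overlap between ERalphaKO placebo and WT placebo. The 7 lymphocyte markers summed to 48.8 to 183 CPM in ERalphaKO placebo and 1.65 to 2.70 CPM in WT placebo libraries, and over all libraries to 3.57 to 183 CPM in ERalphaKO and 0.941 to 3.99 CPM in WT. The 12 fibrocartilage markers summed to 65256 to 93970 CPM in ERalphaKO placebo and 95706 to 104651 CPM in WT placebo libraries. The part of either list in the Esr1 values was not tested.

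Within the wild type the difference in Esr1 between E2 and placebo did not pass the threshold. The log2 fold change of WT E2 over WT placebo was -0.61 ± 0.22 (adjusted p = 0.467), and the 3 WT E2 libraries lay below the 2 WT placebo libraries. In the knockout E2 gave 0.20 ± 0.19 (adjusted p = 0.991) and the groups overlapped, as they did for all 7 receptor genes, while 5.67% of all tested genes did not overlap. The test of the difference between these effects gave 0.81 ± 0.29 (adjusted p = 0.618), so a difference in E2 effect between genotypes was not called. The authors' deposited table listed -0.58 ± 0.22 for Esr1 in WT E2 over WT placebo (adjusted p = 0.236).

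**Figure D2:**
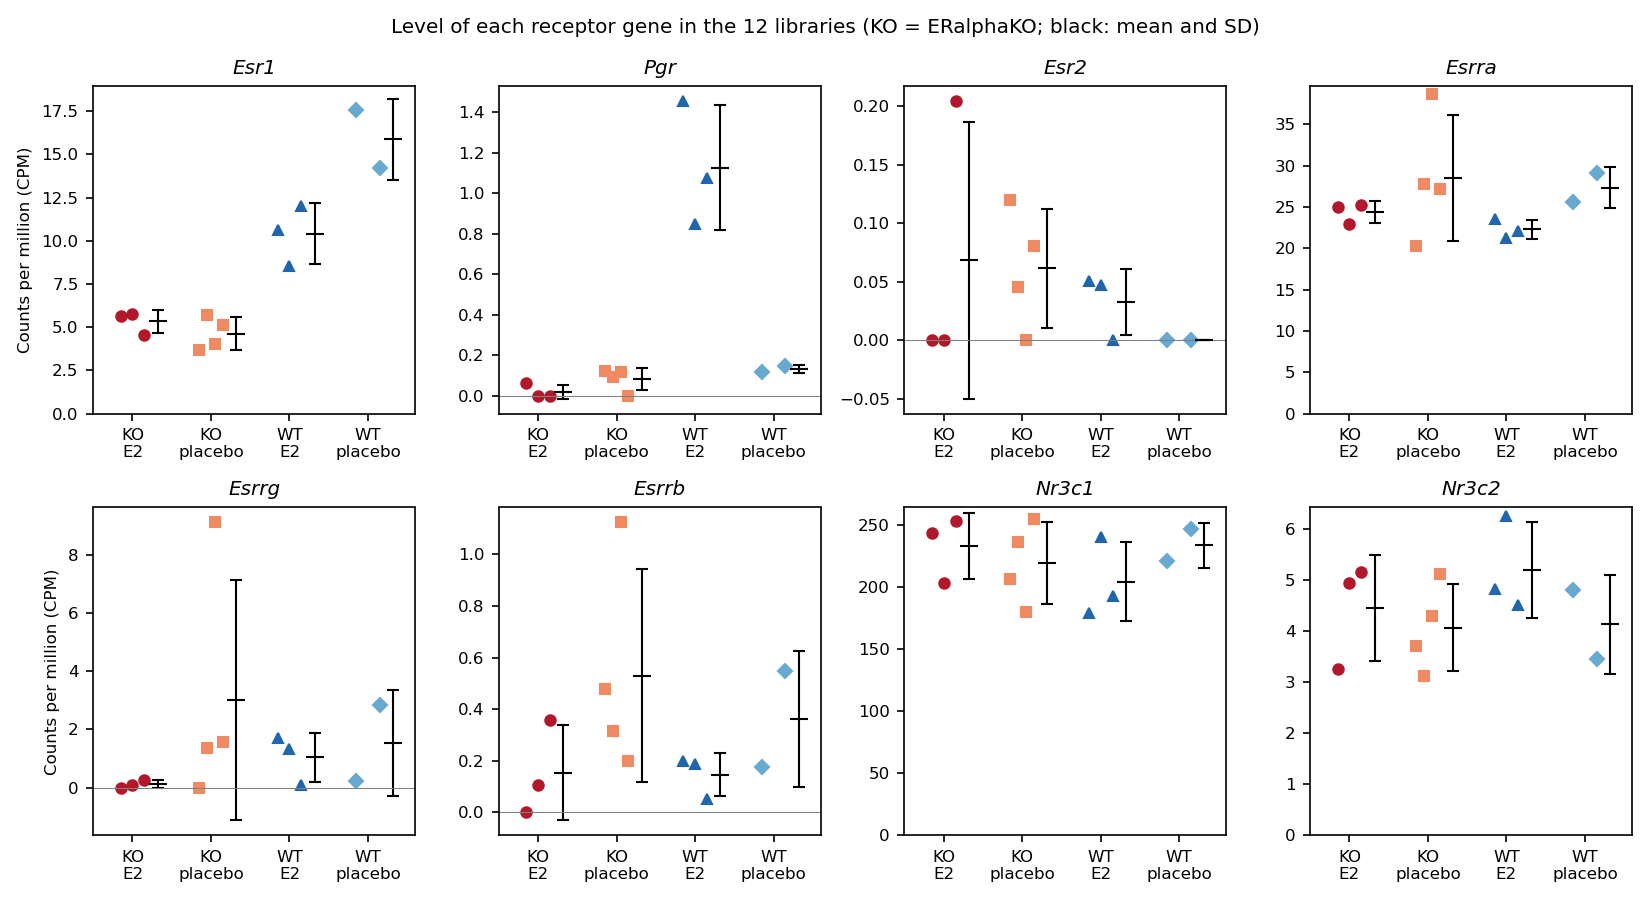
CPM of each of the 8 receptor genes (vertical axes, 1 scale per gene) by group, with 1 point per library and the group mean and SD in black. Esr1 is at 3.65 to 5.78 CPM in the 7 ERalphaKO libraries, below all WT libraries, and Pgr is at 0.847 to 1.46 CPM in WT E2 libraries, above every other library.

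Esr2, which encodes the second estrogen receptor, was at the limit of detection. Its counts were 0, 0 and 4 in ERalphaKO E2, 2, 1, 0 and 2 in ERalphaKO placebo, 1, 1 and 0 in WT E2, and 0 and 0 in WT placebo libraries. The 12 libraries held 11 counts of Esr2 in all, and 6 libraries held none. A count of 0 allows up to 3 counts, which is 0.110 to 0.315 CPM by library and covers counting error only. Esr2 did not pass the filter and was not tested, and a difference between groups was not detectable at this depth.

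Pgr was called for genotype under E2, with the limit of selection given below, and its counts came mainly from wild-type mice given E2. It had 1, 0 and 0 counts in ERalphaKO E2 libraries and 2, 2, 3 and 0 counts in ERalphaKO placebo libraries. It had 29, 18 and 21 counts in WT E2 libraries, against 2 and 4 counts in WT placebo libraries. Its mean was 0.0201 ± 0.0348 CPM in ERalphaKO E2, 0.0815 ± 0.0559 CPM in ERalphaKO placebo, 1.13 ± 0.307 CPM in WT E2 and 0.132 ± 0.0207 CPM in WT placebo (SD). The 3 WT E2 libraries lay above the 9 others without overlap. The share of all tested genes that separate in this way was not counted. Between ERalphaKO E2 and WT E2, Pgr and Esr1 were the 2 receptor genes of 7 without overlap, as were 15.9% of all tested genes, and between ERalphaKO placebo and WT placebo it was Esr1 alone, with 21.1% of all tested genes.

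Pgr passed the filter on low counts only through the 3 WT E2 libraries, the group in which it is high, since no other library reached the filter's level of 0.511 CPM. With the other libraries below that level, it was tested only because it was high in WT E2. Its tests against WT E2 are therefore not independent of that selection. Under E2 Pgr was lower in ERalphaKO than in WT, with a fitted log2 fold change of -5.33 ± 0.88 (edgeR, adjusted p = 0.0175). The comparison of genotypes under E2 called 1 receptor gene of 7 in edgeR and 2 in DESeq2, Pgr and Esr1, where edgeR called 1.1% and DESeq2 3.35% of all genes. As summed counts, 1 read in ERalphaKO E2 stood against 68 in WT E2, a level 51.2-fold lower after scaling, with a 95% interval of 8.88 to 2051 for counting error alone. The fit with skeletal muscle markers as a covariate gave -5.21 (adjusted p = 0.0823), and the slope of Pgr on those markers was 0.03 ± 0.12 log2 units per log2 unit (adjusted p = 0.975). Of the 13 marker lists, 4 did not overlap between these 2 groups. Muscle markers summed to 10.6 to 62.4 CPM in ERalphaKO E2 and 270 to 1331 CPM in WT E2, and the 8 osteoblast and osteocyte markers to 4907 to 5313 CPM in ERalphaKO E2 and 5544 to 9370 CPM in WT E2 libraries. The 7 erythroid markers, of which Hbb-b1, Hba-a1 and Hba-a2 were at 0 in every library, summed to 60.2 to 143 CPM in ERalphaKO E2 and 21.7 to 57.1 CPM in WT E2, and the fibrocartilage markers to 91739 to 99444 CPM in ERalphaKO E2 and 73644 to 91556 CPM in WT E2 libraries. The part of the last 3 lists in the Pgr values was not tested. The call was lost without any one of the 3 ERalphaKO E2 libraries or without WT E2 replicate 1 (log2 fold changes -7.52 to -4.70, adjusted p 0.0503 to 0.098), and without the 2 libraries highest in granulocyte markers (-7.48, adjusted p = 0.0635). The authors' deposited table listed -2.93 ± 0.61 for this comparison (adjusted p = 1.6e-04). This is smaller in size than the edgeR value and the -5.51 of DESeq2 here. The reason for the gap was not tested.

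In the wild type Pgr, tested only because of its counts in WT E2, gave a log2 fold change of 3.01 ± 0.75 for E2 over placebo, which missed the threshold over all genes in edgeR (adjusted p = 0.176). DESeq2 gave no adjusted p for it. The 68 counts in WT E2 and 6 in WT placebo correspond to an 8.28-fold higher level (95% counting interval 3.61 to 23.3). In the authors' deposited table the same comparison stood at 1.86 ± 0.49 with an adjusted p of 0.0121, where 1.75% of its genes passed the threshold of 0.05. That log2 fold change is also smaller than the edgeR value and the 3.07 of DESeq2 here. In the knockout the log2 fold change under E2 was -1.60 ± 1.10 (adjusted p = 0.963), from 1 count in ERalphaKO E2 against 7 in ERalphaKO placebo. The interaction of E2 and genotype was -4.61 ± 1.32 (adjusted p = 0.477), and 0.0539% of genes were called in that test. Between WT E2 and WT placebo 3 marker lists did not overlap. Osteoblast and osteocyte markers summed to 5544 to 9370 CPM in WT E2 and 5040 to 5065 CPM in WT placebo libraries. The 8 adipocyte markers summed to 5.37 to 13.3 CPM in WT E2 and 14.1 to 92.3 CPM in WT placebo, and the fibrocartilage markers to 73644 to 91556 CPM in WT E2 and 95706 to 104651 CPM in WT placebo libraries. Their part in the Pgr values was not tested.

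The Pgr promoter is shown because Pgr was called for genotype under E2 in edgeR, a call not independent of the filter. It is the 250 bases before the annotated start in RefSeq, build GRCm38.p6, plus strand, chr9:8899583-8899832, with capitals marking the GC box GGGCGG.
Pgr promoter: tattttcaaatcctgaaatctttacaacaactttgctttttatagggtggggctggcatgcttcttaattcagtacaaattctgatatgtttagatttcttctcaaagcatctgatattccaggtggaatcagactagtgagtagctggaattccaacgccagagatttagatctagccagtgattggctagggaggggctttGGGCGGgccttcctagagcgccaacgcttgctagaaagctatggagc
The GC box lies 47 bases before the start, and 32.7% of 32851 promoter windows of this length hold one on either strand. No match was found on either strand for the estrogen response element (GGTCA, 3 bases of any kind, then TGACC), its single arm GGTCA, the glucocorticoid and progesterone receptor hexamer TGTTCT or the estrogen-related receptor element TCAAGGTCA. Of all windows, 0.0639%, 35.2%, 16.1% and 0.387% hold these motifs in the order given, and the single arm is contained in the 2 longer elements named for estrogen and estrogen-related receptors. In the 12 RefSeq windows of 7 of the receptor genes, the full estrogen response element was not found, the arm GGTCA was in 3 windows (Esr2, Esrrb, Nr3c2) and TGTTCT in 1 (Esrrb). These are letter matches in the reference sequence and no binding was measured.

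Among the estrogen-related receptors Esrra was the abundant one, and it had no call. It stood at 25.1, 22.9 and 25.3 CPM in ERalphaKO E2, 20.2, 27.8, 38.7 and 27.2 CPM in ERalphaKO placebo, 23.5, 21.3 and 22.1 CPM in WT E2, and 25.6 and 29.1 CPM in WT placebo libraries. The highest value was that of ERalphaKO placebo replicate 3, the library highest in muscle markers. Under E2 in WT the log2 fold change was -0.29 ± 0.20 (adjusted p = 0.79), and the 3 WT E2 libraries lay below the 2 WT placebo libraries. Between these groups 3 of 7 receptor genes, Esr1, Esrra and Pgr, did not overlap, as did 26.9% of all tested genes. In the knockout the E2 effect on Esrra was -0.22 ± 0.17 (adjusted p = 0.991), and averaged over genotypes -0.26 ± 0.13 (adjusted p = 0.7). Esrra overlaps Trmt112 on the opposite strand, and no source used here says whether counting used strand, so the 2 genes may share counts.

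Esrrg ran from no count to 9.10 CPM, with its highest values in the libraries with the most skeletal muscle markers. It had 0, 0.105 and 0.256 CPM in ERalphaKO E2 libraries and 0, 1.35, 9.10 and 1.57 CPM in ERalphaKO placebo libraries. It had 1.71, 1.32 and 0.102 CPM in WT E2 libraries, against 0.235 and 2.82 CPM in WT placebo libraries. Each library above 1 CPM of Esrrg had at least 788 CPM of muscle markers, and each library below 1 CPM had at most 270 CPM. The slope on the mean log2 level of the markers was 0.67 ± 0.15 (adjusted p = 0.0915), where 1.18% of all genes had a called slope. For E2 over placebo the log2 fold change of Esrrg was -4.50 ± 1.74 in ERalphaKO (adjusted p = 0.848), -0.58 ± 1.51 in WT (adjusted p = 0.959) and -2.54 ± 1.15 averaged over genotypes (adjusted p = 0.632). The groups overlapped in both genotypes, and 3 predicted genes lie on its opposite strand. In ERalphaKO the value was -2.90 without ERalphaKO placebo replicate 3, and in WT it was 2.12 without WT placebo replicate 2, the 2 libraries highest in muscle markers.

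Esrrb was rare in every group, and it passed the filter through 2 placebo libraries alone, 1 of each genotype. Its tests of E2 against placebo are therefore not independent of that selection. Its counts were 0, 1 and 7 in ERalphaKO E2, 8, 7, 29 and 5 in ERalphaKO placebo, 4, 4 and 1 in WT E2, and 3 and 15 in WT placebo libraries. ERalphaKO placebo replicate 3 and WT placebo replicate 2 held the highest counts, and the ranges overlapped in each comparison. The E2 effect averaged over genotypes was -1.48 ± 0.69 (adjusted p = 0.648), in a comparison that called none of the 7 receptor genes and 0.0539% of all genes, and the slope on muscle markers was 0.12 ± 0.11 (adjusted p = 0.943). For E2 in ERalphaKO none of the 7 receptor genes was called, and 0% of all genes were called in edgeR. DESeq2 called 5 genes (0.0337%) and none of these receptors.

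**Figure D3:**
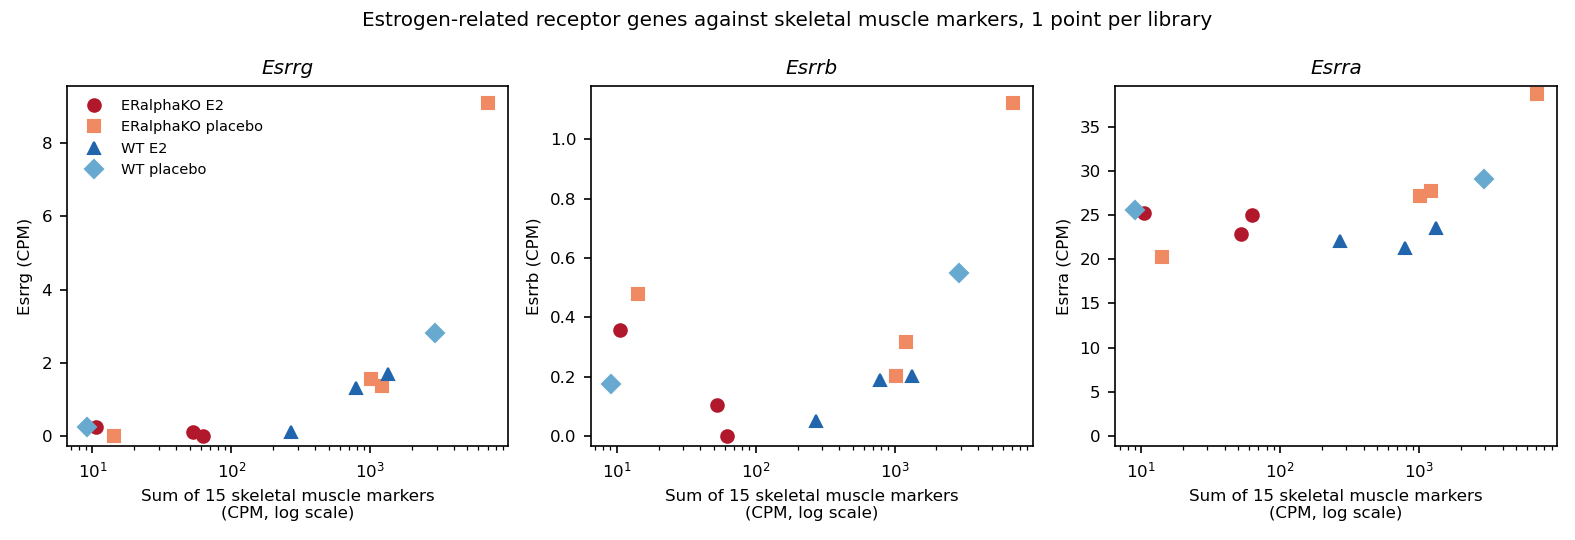
CPM of Esrrg, Esrrb and Esrra (vertical axes) against the sum of 15 skeletal muscle markers in CPM (horizontal log axis), 1 point per library coloured by group. Esrrg is above 1 CPM in the libraries with at least 788 CPM of muscle markers, and ERalphaKO placebo replicate 3 is highest for all 3 genes.

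Genes that the estrogen-related receptors are known to act on, together with their coactivators, were examined as a list of 15, of which 13 were tested. None was called in any of the 7 comparisons. Under E2 12 of 13 had a negative log2 fold change in WT (median -0.29) and 13 of 13 in ERalphaKO (median -0.35), with medians over all genes of -0.0043 and 0. DESeq2 called none of the 13 in either genotype. Atp5b, a subunit gene of mitochondrial ATP synthase, stood at 532 ± 39.7 CPM in ERalphaKO E2, 617 ± 170 CPM in ERalphaKO placebo, 531 ± 46.4 CPM in WT E2 and 649 ± 42.1 CPM in WT placebo. Cs, the citrate synthase gene, stood at 122 ± 6.45 CPM in ERalphaKO E2, 149 ± 33.5 CPM in ERalphaKO placebo, 129 ± 12.2 CPM in WT E2 and 149 ± 12.6 CPM in WT placebo. The list includes genes abundant in muscle, the muscle marker sums given above differ between these groups, and their part in the medians was not tested.

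The corticosteroid receptor genes overlapped between the groups in every comparison and had no call. Nr3c1 stood at 244, 203 and 253 CPM in ERalphaKO E2, 206, 237, 180 and 255 CPM in ERalphaKO placebo, 179, 240 and 193 CPM in WT E2, and 221 and 247 CPM in WT placebo libraries. No group stood apart from the others. Its log2 fold change was 0.19 ± 0.15 for genotype under E2 (adjusted p = 0.704), -0.09 ± 0.16 for genotype under placebo (adjusted p = 0.903), 0.09 ± 0.14 for E2 in ERalphaKO (adjusted p = 0.997) and -0.19 ± 0.17 for E2 in WT (adjusted p = 0.834). With standard errors of 0.14 to 0.17, a change of 2-fold in Nr3c1 lies more than 4 standard errors from each of these estimates.

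Nr3c2 was lower than Nr3c1 in every library and likewise overlapped between groups. It stood at 3.25, 4.94 and 5.16 CPM in ERalphaKO E2, 3.71, 3.11, 4.30 and 5.11 CPM in ERalphaKO placebo, 4.82, 6.26 and 4.51 CPM in WT E2, and 4.81 and 3.44 CPM in WT placebo libraries. Its log2 fold changes were -0.23 ± 0.25 for genotype under E2 (adjusted p = 0.814), -0.02 ± 0.27 for genotype under placebo (adjusted p = 0.991), 0.13 ± 0.24 for E2 in ERalphaKO (adjusted p = 0.997) and 0.34 ± 0.28 for E2 in WT (adjusted p = 0.826). Per kb of exon the ratio of Nr3c1 to Nr3c2 was 35.2 to 71.9 over the 12 libraries, with a median of 44.9. Nr3c2 overlaps Gm10649 and Gm24838 on the opposite strand, and the use of strand in counting is not given, so these genes may share counts. For E2 in WT no receptor gene of 7 was called in edgeR. None was called in DESeq2, which gave no adjusted p for Pgr and Esrrb. Of all genes 0.458% were called in edgeR and 1.67% in DESeq2.

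**Figure D4:**
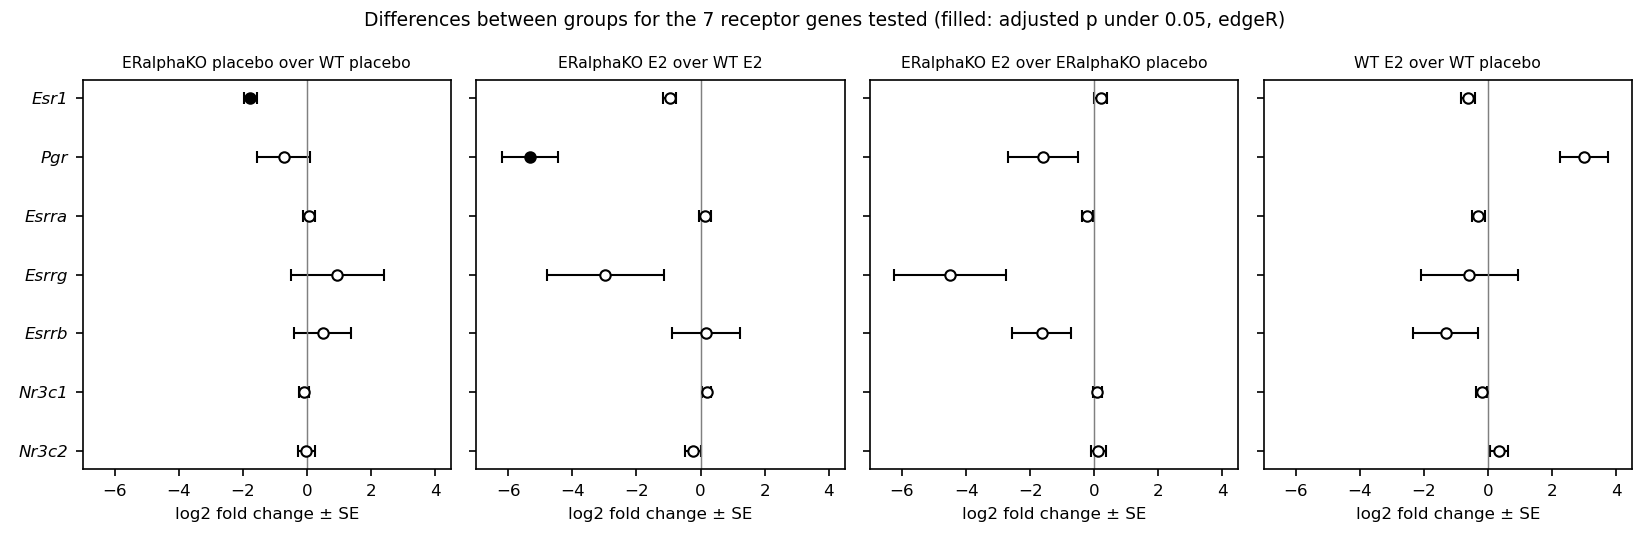
Log2 fold change ± SE (horizontal axes) of the 7 tested receptor genes in 4 comparisons, with filled points for an adjusted p under 0.05 in edgeR. Esr1 is filled at -1.77 for ERalphaKO placebo over WT placebo and Pgr at -5.33 for ERalphaKO E2 over WT E2.

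Genes known to respond to these receptors gave few calls. Of 13 genes that estrogen induces in other tissues 12 were tested, and Greb1, which encodes a cofactor of estrogen receptor alpha, rose in WT under E2 as the 1 called member, where 0.458% of all genes were called. Greb1 stood at 0.334 ± 0.140 CPM in ERalphaKO E2, 0.164 ± 0.0351 CPM in ERalphaKO placebo, 22.9 ± 4.81 CPM in WT E2 and 0.187 ± 0.0984 CPM in WT placebo. In the comparison of genotypes under E2, Greb1 (log2 fold change -6.09 ± 0.33, adjusted p = 1.63e-05) and Pgr were the 2 members called, both lower in ERalphaKO, where 1.1% of all genes were called. Both genes passed the filter only through the 3 WT E2 libraries, so these calls are not independent of that selection. The list had a median of 0.16 in WT under E2 and of 0.04 between genotypes under E2, where the medians over all genes were -0.0043 and -0.0031. Of 9 progesterone targets 5 were tested, and Wnt4, a secreted ligand that progesterone induces in the mouse mammary gland, was the 1 called in each of these comparisons, with list medians of 0.50 in WT under E2 and -0.56 between genotypes under E2. It stood 2.01-fold higher under E2 in WT (1.00 ± 0.17, adjusted p = 0.0419) and was lower in ERalphaKO under E2 (-0.91 ± 0.15, adjusted p = 0.0182). In ERalphaKO the E2 effect on Wnt4 was 0.34 ± 0.14 and was not called (adjusted p = 0.848). A difference in its E2 effect between genotypes was not called either (-0.67 ± 0.22, adjusted p = 0.559). Whether the Greb1 and Wnt4 calls hold without single libraries or with marker covariates was not tested.

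The lists tied to the corticosteroid receptors held no called gene in the 7 comparisons in edgeR. DESeq2 called 1 of 14 glucocorticoid-induced genes for E2 in WT, 1 for genotype averaged over treatments and 1 for E2 averaged over genotypes, where it called 1.67%, 3.98% and 0.897% of all genes in that order. It also called 1 of 7 mineralocorticoid targets for genotype averaged over treatments. Of 15 glucocorticoid-induced genes 14 were tested, with a median E2 effect of 0.23 in WT and -0.06 in ERalphaKO, against medians over all genes of -0.0043 and 0. Tsc22d3, a glucocorticoid-induced leucine zipper gene, stood at 520 ± 199 CPM in ERalphaKO E2, 415 ± 261 CPM in ERalphaKO placebo, 319 ± 176 CPM in WT E2 and 191 ± 65.4 CPM in WT placebo. Of 9 mineralocorticoid targets 7 were tested, with a median E2 effect of 0.09 in WT and 0.05 in ERalphaKO. Several genes, such as Tsc22d3 and Fkbp5, stand in more than 1 list.

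The partners of the receptors were also without a call in edgeR or DESeq2. They were 16 chaperones and co-chaperones, of which 16 were tested, 18 of 20 coregulators, 12 of 17 genes of steroid conversion, 24 of 24 other nuclear receptors and 5 of 6 other steroid receptors. Over these 5 lists and the 7 comparisons the list medians ran from -0.13 to 0.24. Hsp90ab1, whose chaperone protein holds steroid receptors in a ligand-ready state, stood at 836 ± 52.9 CPM in ERalphaKO E2, 836 ± 90.9 CPM in ERalphaKO placebo, 828 ± 55.5 CPM in WT E2 and 871 ± 70.6 CPM in WT placebo.

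The tested genes most like each receptor gene across the 12 libraries were found by Pearson's r of log2 CPM among 12466 genes. Those of Esrra were Sdhd (r = 0.969), Mdh2 (0.959) and Sod2 (0.952), which encode mitochondrial enzymes or their subunits. Those of Esrrg were Flnc (0.961), Jsrp1 (0.960) and Xirp1 (0.959), which are genes of striated muscle. Those of Esr1 were Ext2 (0.946), Ccs (0.933) and Entpd4 (0.882), those of Nr3c1 were Pvrl3 (0.957), Glud1 (0.950) and Mtmr6 (0.943), and those of Nr3c2 were Nup35 (0.870), Tssk4 (0.861) and Crtc3 (0.827). These are descriptions over libraries that share groups, tissue admixture and depth. Pgr, Esrrb and Esr2 averaged under 1 CPM and were not compared in this way.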

How the data were processed

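The submitters' processing notes name bcl2fastq 2.17, TopHat and the mouse build mm9. Neither a TopHat version nor the counting tool, annotation or use of strand is given in the sources used here. Per the labels, RNA had an integrity number of at least 9 and reads had 100 bases. The authors deposited raw counts per gene symbol for 12 libraries, which were used here, and comparison tables with log2 fold changes and p-values, which are quoted by name.

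From the counts, genes passing the edgeR expression filter (minimum count 10) were tested, 14832 in all, and 4326 genes had no count. TMM scaling (trimmed mean of M values) was applied, and counts were fitted in edgeR 4.0.16 (R 4.3.3) by the quasi-likelihood test with 1 mean per group, 8 residual degrees of freedom and a biological coefficient of variation of 25.9%. Comparisons were E2 in each genotype, genotype under each treatment, their interaction and both averages, adjusted by Benjamini-Hochberg with a threshold of 0.05. The SE of a log2 fold change is its size over the root of the F statistic. CPM are group means ± SD over libraries. Levels per kb used the union of exons in GENCODE M21 basic, matched by symbol, and promoters came from RefSeq GRCm38.p6. No coordinates were carried between builds. Intervals and floors cover counting error only, and reads carried no molecular identifiers. DESeq2 1.42.0 was an alternative, and the fits were tested on simulated data.

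The receptor genes, the 10 lists (138 genes, 120 tested) and the marker lists were chosen with earlier results of these data known. All receptor genes are named. From each list up to 3 called genes are named by smallest p, or else up to 2 of the most expressed. Some list genes that the rule names are not reported here.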

Additional observations from a re-analysis of the deposited data

Results flagged for a closer look

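No receptor gene had a library standing apart within ERalphaKO placebo, the group of 4 in which this can be tested, by the Dixon gap test at 95%. Esrrg missed the critical value narrowly, with 9.10 CPM in replicate 3 against 0, 1.35 and 1.57 CPM in the others. Of 13 marker lists tested in the same way, 5 had a library standing apart, and chance gives about 1 in 20. Skeletal muscle and adipocyte markers passed narrowly, each with a gap over range of 0.830 against a critical 0.829. ERalphaKO placebo replicate 3 stood apart with 7060 CPM of skeletal muscle markers, against 14.2 to 1215 CPM in the other libraries of its group. It also stood apart with 15416 CPM of granulocyte markers, against 16.3 to 2177 CPM. It had 67.8 CPM of adipocyte markers, against 15.2 to 24.2 CPM, and 312 CPM of endothelial markers, against 261 to 268 CPM. ERalphaKO placebo replicate 1 stood apart with 292 CPM of peripheral nerve markers, against 255 CPM or less. The part of these markers in the receptor values was not tested beyond the fits with muscle or granulocyte markers as covariates and those that leave libraries out.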

How the results depend on the processing

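Esr1, averaged over treatments, was called under each alternative tried for it, and no called value changed sign. Another scaling (RLE) and no filter on low counts moved no count of calls by over 1.5 times, and leaving out TMM moved no group mean of a receptor gene beyond its SD, nor did the longest transcript in place of all exons (chosen after seeing the data) move a level per kb beyond its SD. DESeq2 called 247 genes for E2 in WT, 5 for E2 in ERalphaKO, 150 for genotype under placebo, 497 for genotype under E2 (2 receptor genes), 102 for the interaction, 591 for genotype averaged (2 receptor genes) and 133 for E2 averaged. Fits of only the 2 groups called 7 genes for E2 in WT, 0 for genotype under placebo (0 receptor genes) and 66 for genotype under E2. Deviations of same-numbered samples correlated at -0.33 to 0.50 over 15 pairs, with 9 over 0.1. All 6 pairs of replicate 2 lay at 0.21 to 0.47, against 2 of 6 for replicate 1 and 1 of 3 for replicate 3 over 0.1. The main fits left the number out. Whether same-numbered samples share more than a number is not given in the sources used here. With a replicate block 18 genes were called for E2 in WT, 0 for genotype under placebo (0 receptor genes; Esr1 -1.81, adjusted p = 0.341), 62 for genotype under E2, 3 for the interaction and 34 for genotype averaged. With muscle markers as a covariate 37 genes were called for E2 in WT, 1 for genotype under placebo, 88 for genotype under E2 (0 receptor genes in either), 0 for the interaction and 79 for genotype averaged. The granulocyte covariate gave 4 for genotype under placebo, 32 for the interaction and 93 for genotype averaged. Chosen after seeing the data, leaving out the 2 libraries highest in muscle markers gave 20 for E2 in WT, 1 for genotype under placebo (0 receptor genes), 3 for the interaction, 37 for genotype averaged and 2 for E2 averaged. Leaving out the 2 highest in granulocyte markers gave 57 for genotype under placebo and 70 for genotype under E2 (0 receptor genes). Without any one library the counts ran from 1 to 131 for E2 in WT, 1 to 4 for genotype under placebo (receptor genes 0 to 1), 51 to 236 for genotype under E2 (receptor genes 0 to 2), 0 to 31 for the interaction, 13 to 247 for genotype averaged and 1 to 64 for E2 averaged. The causes of these shifts were not tested, apart from the fewer libraries in fits that leave some out.

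Log2 fold changes that changed sign were all uncalled. For genotype under placebo they were Esrra at -0.029 with the replicate block, -0.076 with the muscle covariate, -0.019 with the granulocyte covariate, -0.027 without the 2 libraries highest in muscle markers and -0.11 without those highest in granulocyte markers. Esrrg there was -0.057 with the replicate block, -0.24 with the muscle covariate and -0.64 without the granulocyte-high libraries. Nr3c1 was 0.074 and 0.0012 without the muscle-high and granulocyte-high libraries, and Nr3c2 was 0.030 with the muscle covariate. For genotype under E2, Esrrb was -0.16 with the replicate block and Esrrg 0.11 with the muscle covariate. For E2 in ERalphaKO, Esrra was 0.047 with the muscle covariate and Nr3c1 -0.029 without the granulocyte-high libraries. For E2 in WT, Esrrg was 2.12 without the muscle-high libraries. In the interaction Esrrb was 0.37 and Esrrg 0.35 with the muscle covariate, and Nr3c2 0.045 and 0.0066 without the muscle-high and granulocyte-high libraries. For E2 averaged, Nr3c1 was 0.0033 with the replicate block and Pgr -0.24 without the granulocyte-high libraries. Without any one library, values that crossed 0 ran from -1.43 to 2.12 for Esrrg with E2 in WT; under placebo from -0.12 to 0.20 for Esrra, -0.042 to 1.57 for Esrrb, -0.65 to 3.66 for Esrrg and -0.24 to 0.24 for Nr3c2. Esrrb under E2 ran from -1.74 to 0.77. In the interaction Esrra ran from -0.064 to 0.26, Esrrb from -2.23 to 0.28 and Nr3c2 from -0.46 to 0.019. For genotype averaged Esrrb ran from -0.62 to 0.87, Esrrg from -1.81 to 0.34 and Nr3c2 from -0.23 to 0.0058, and for E2 averaged Pgr ran from -0.39 to 1.02. Depth limits Esr2, Pgr and Esrrb most, with at most 4, 29 and 29 counts in a library.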
